A study of Mus musculus with 20 samples.

Results

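Macrophages that had received interferon gamma (IFN-γ) together with a CpG oligodeoxynucleotide for 9 h were compared with unstimulated macrophages, across the 11222 regions that the authors list as enhancers and across the genomic loci into which these regions fall. The 2 libraries of each group were chosen by their labels, so 4 of the 20 libraries of the study carry the main comparison. All cells were bone marrow-derived macrophages of C57BL/6 mice, grown in medium with the growth factor M-CSF, and no genetic change is named. The groups are cells given IFN-γ plus CpG for 9 h, cells given both for 3 h or 15 h, cells given IFN-γ alone or CpG alone for 9 h, and unstimulated cells of 0 h, with 2 libraries each. The protocols also mention polarization with IL-4 and IL-10, without saying whether the cells sequenced here went through it. No untreated cells of 9 h are among the samples, so the response to the stimuli and any effect of time in culture cannot be told apart in the main comparison. The replicates are biological ones by the study's design text, and whether each came from its own mouse is not stated. The labelled cell type was not set against marker genes here.

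Active enhancers are transcribed, usually in both directions, into short-lived capped RNAs, and cap analysis of gene expression (CAGE) counts the 5′ ends of such RNAs as tags. In macrophages IFN-γ acts through its cell-surface receptor and JAK kinases, while CpG DNA is sensed in endosomes by Toll-like receptor 9 (TLR9), which signals through MyD88 to NF-κB and IRF factors. Many macrophage enhancers become active only after such signals, and inflammatory signals also lower the activity of others. Neighbouring enhancers often respond together, which is why tags were also summed by locus.

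The TLR9 ligand named in the labels' protocol is the synthetic CpG oligodeoxynucleotide ODN-1826. That protocol describes a stimulation of another length, and whether it applies to the cells sequenced here is not stated. The sequence is shown because its 2 CG dinucleotides, printed in capitals, are the feature for which CpG DNA is named.
ODN-1826: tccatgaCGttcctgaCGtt

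The 4 libraries held 13142748 to 13826739 tags, of which 17419 to 22026 fell in enhancers (0.133% to 0.159%). The level used below is RPM, tags relative to all tags of the library. The summed enhancer level was 1359 ± 47.8 RPM after IFN-γ plus CpG and 1552 ± 58.0 RPM in unstimulated cells (mean ± SD, n = 2 each). Both stimulated libraries were below both unstimulated ones, and the difference of -193 RPM had an exact two-sided permutation p of 0.333, the smallest that 2 against 2 libraries can give. Fewer cells of a type and less RNA per cell cannot be told apart in such bulk libraries. Single enhancers were read at low depth: 2792 of the 11222 passed the filter on low counts, and a tested enhancer had a median of 3 tags in a library. Log2 changes, given ± a standard error, are on the scale of the edgeR fit (TMM factors from the enhancer tags). That scale lies 0.31 above log2 of the RPM ratio in this comparison. The standard error was derived as the size of the log2 change divided by the square root of the test's F statistic. It is approximate, above all where a group had no tag. Over the tested enhancers the median log2 change was 0.32 on that scale and 0.04 with whole-library totals, a shift of -0.28.

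Transcription changed at 624 enhancers, or 22.3% of those tested: 393 were higher after IFN-γ plus CpG (14.1%) and 231 were lower (8.27%; edgeR quasi-likelihood test, Benjamini-Hochberg adjusted p under 0.05). The 393 enhancers that rose had a median level of 0.494 RPM with both stimuli and 0.0362 RPM without. The 231 that fell had a median level of 0.0757 RPM with both stimuli and 0.805 RPM without. The excess of rises depended on the scaling, because with whole-library totals 292 enhancers were called higher and 304 lower, so that 49.0% of calls were rises. With limma on log2(RPM + 0.5), which scales by the same totals, 305 were called higher and 398 lower. DESeq2 called 192 enhancers (144 higher, 48 lower). On simulated data with the depths of this comparison, each change started from the mean of an enhancer over all libraries. There edgeR recovered 94% of 8-fold rises and 12% of 8-fold falls. That starting level leaves few tags for a fall to lose, and the falls called here started from a median of 0.805 RPM. These shares therefore do not tell how many rises or falls were missed in the real comparison.

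**Figure D1:**
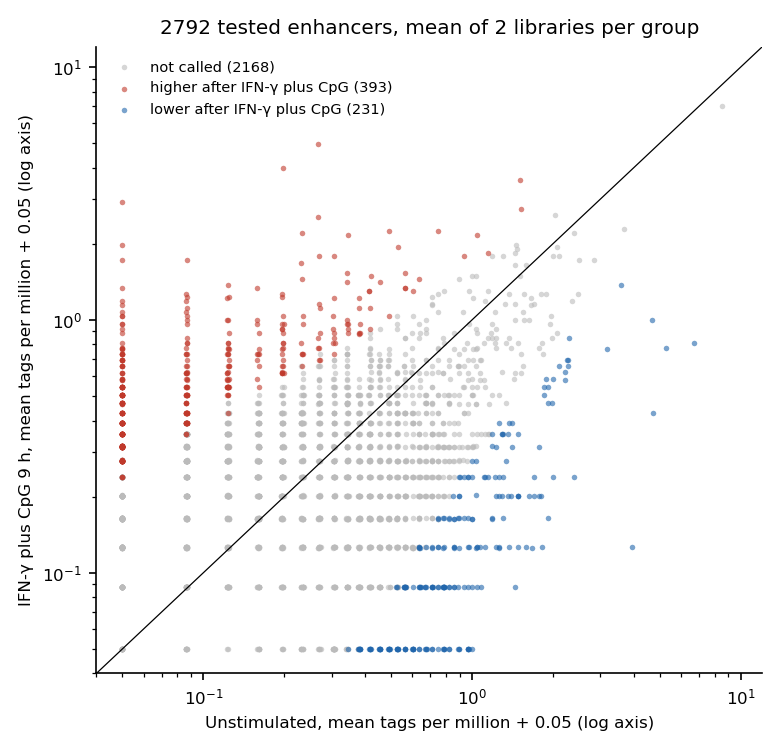
Mean level of each of the 2792 tested enhancers after IFN-γ plus CpG for 9 h (vertical axis) against unstimulated cells (horizontal axis), in RPM with 0.05 added, on log axes; each point is the mean of 2 libraries and the line marks equal levels. The 393 enhancers called higher lie above the line, many of them at the left edge where unstimulated cells had no tag, and the 231 called lower lie below it.

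The calls differed with the number of tags an enhancer had in unstimulated cells. Of 372 tested enhancers with no tag in either unstimulated library, 185 were called higher, and none of these could have been called lower. Among 36 enhancers with 51 to 232 tags in the unstimulated pair, 21 were called lower and none higher. Between these, 71 of 952 enhancers with 4 to 10 unstimulated tags rose and 15 fell. By surroundings, 21 of 254 tested enhancers that stood alone in their locus rose (8.3%) and 25 fell (9.8%). Of 1136 in loci of 8 to 30 enhancers 171 rose (15.1%) and 90 fell (7.9%). The latter shares are near the 14.1% and 8.27% over all tested enhancers, and the difference by surroundings was not tested. The counts by unstimulated tags follow in part from the filter on low values and describe the enhancers without being evidence of a direction.

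The largest rise was at chr16:17285443-17285962 (mm39, positions as deposited), a region of 519 bp with no other listed enhancer within 50 kb. It had 44 and 32 tags in the IFN-γ plus CpG libraries and none in either unstimulated library. With 3 tags over the unstimulated pair taken as the floor, its RPM was at least 26.2-fold higher (edgeR adjusted p = 2.00e-18). With IFN-γ alone for 9 h it had 4 and 8 tags, and with CpG alone 0 and 1, so the combination stood clear of both single stimuli. At 3 h of both stimuli it had 6 and 10 tags and at 15 h 28 and 36.

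The next rises in size also started from no tag. At chr4:132459018-132459199 there were 23 and 28 tags with both stimuli and none in unstimulated cells, at least 17.6-fold higher (edgeR adjusted p = 7.88e-13). At chr3:121164067-121164375 there were 20 and 24 tags with both stimuli and none without, at least 15.2-fold higher (edgeR adjusted p = 1.89e-12). The groups did not overlap at either enhancer. They differed in what the single stimuli gave at 9 h: the chr4 enhancer had 3 and 6 tags with IFN-γ and 4 and 1 with CpG, while the chr3 enhancer had 33 and 48 tags with IFN-γ and 2 and 2 with CpG. At chr11:21189605-21190141 there were 15 and 19 tags with both stimuli and none without (at least 11.7-fold, edgeR adjusted p = 2.91e-09), beside 20 and 10 with IFN-γ alone and 1 and 1 with CpG alone.

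A further pair of enhancers carried tags with CpG alone and hardly any with IFN-γ alone. The enhancer chr19:10822778-10823211 had 15 and 11 tags with both stimuli, 0 and 2 with IFN-γ, 15 and 20 with CpG, and none in unstimulated cells (at least 8.97-fold higher with both than without, edgeR adjusted p = 2.86e-07). The enhancer chr5:65042388-65042734 had 9 and 15 tags with both stimuli, 1 and 3 with IFN-γ, 12 and 6 with CpG, and none in unstimulated cells (at least 8.28-fold, edgeR adjusted p = 2.1e-06). At both, the combination was higher than IFN-γ alone (edgeR call at 9 h) and not called different from CpG alone.

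The other 6 of the 12 largest rises had 23 to 30 tags in the IFN-γ plus CpG pair and none in the unstimulated pair. At chr2:77937049-77937442 there were 14 and 16 tags with both stimuli, 2 and 0 with IFN-γ and 6 and 4 with CpG, and at chrX:48363308-48363676 there were 7 and 16 with both, 0 and 1 with IFN-γ and 4 and 1 with CpG. Both of these were called higher with the combination than with either single stimulus (edgeR). Against CpG, the call of the chr2 enhancer was lost whichever of the 4 libraries was left out, with whole-library totals, with DESeq2 and with no filter. The call of the chrX enhancer against CpG was lost in 3 of the 4 fits with 1 library left out, with whole-library totals and with no filter. Against IFN-γ, the chr2 call was lost in 1 and the chrX call in 2 of the 4 such fits. At chr10:117555820-117556219 there were 13 and 11 tags with both stimuli, 12 and 22 with IFN-γ and 3 and 0 with CpG, higher than CpG alone and not called different from IFN-γ alone. At chr2:117129364-117129727 there were 16 and 13 tags with both stimuli, 5 and 8 with IFN-γ and 12 and 13 with CpG, and the combination differed from neither single stimulus by the test. The single stimuli thus differed widely among the 12 largest rises.

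Of the 3 called rises with the highest RPM over the 4 libraries, chr19:11349540-11350041 had the largest change. Its 66 and 64 tags with both stimuli stood against 5 and 1 tags in unstimulated cells, or 4.93 ± 0.0889 RPM with both stimuli and 0.218 ± 0.203 RPM without (mean ± SD, n = 2 each). The log2 change was 4.73 ± 0.44 (edgeR adjusted p = 1.98e-23), and the RPM ratio was 22.4-fold (exact 95% counting interval 10.0 to 62.2). It carried 2 and 6 tags with IFN-γ alone and 38 and 48 with CpG alone. The enhancer chr2:30818921-30819384 had 50 and 43 tags with both stimuli and 28 and 12 without (log2 change 1.57 ± 0.32, edgeR adjusted p = 5.41e-05). At chr4:141600258-141600694 the 32 and 39 tags with both stimuli against 13 and 27 without gave a log2 change of 1.18 ± 0.34 (edgeR adjusted p = 0.00673). This last call was lost with whole-library totals (log2 0.87, adjusted p = 0.0834) and without unstimulated replicate 1 (0.72, adjusted p = 0.222) or IFN-γ plus CpG replicate 2 (0.93, adjusted p = 0.130). It was also lost with limma on log2(RPM + 0.5) (0.74, adjusted p = 0.0643) and on log2(RPM + 0.1) (0.91, adjusted p = 0.0832).

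The enhancers with the most tags among those that fell kept some transcription. At chr5:34684166-34684741 there were 11 and 9 tags with both stimuli and 90 and 91 in unstimulated cells, a log2 change of -2.81 ± 0.35 (edgeR adjusted p = 2.54e-13) and an RPM ratio 8.75-fold lower (exact 95% counting interval 5.50 to 14.7). Each single stimulus gave an intermediate level there, 27 and 40 tags with IFN-γ and 35 and 29 with CpG. The combination was called lower than either, but the call against CpG was lost whenever 1 library was left out and that against IFN-γ in 3 of 4 such fits. At chr8:84928192-84928495 there were 8 and 11 tags with both stimuli and 72 and 70 without (log2 change -2.53 ± 0.36, edgeR adjusted p = 4.84e-10), with 39 and 30 tags for IFN-γ and 28 and 34 for CpG. At chr5:114083055-114083713 there were 12 and 13 tags with both stimuli and 69 and 57 without (log2 change -1.97 ± 0.34, edgeR adjusted p = 1.24e-06). At all 3 enhancers both stimulated libraries lay below both unstimulated ones.

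The 10 largest falls by fitted change had no tag in either IFN-γ plus CpG library. The enhancer chr12:85470619-85471124 had no tags with both stimuli and 18 and 8 in unstimulated cells, at least 8.38-fold lower with 3 tags over the stimulated pair as the floor (adjusted p = 2.40e-04 with edgeR). At chr17:71141771-71141978 no tags with both stimuli stood against 11 and 14 without (a fold of at least 8.06 lower, edgeR adjusted p = 8.45e-05). At chr5:120696843-120697231 no tags with both stimuli stood against 12 and 13 without (likewise at least 8.06-fold, edgeR adjusted p = 8.12e-05). These last enhancers kept tags with each single stimulus at 9 h. The chr17 enhancer had 6 and 7 tags with IFN-γ and 7 and 5 with CpG, and the chr5 enhancer 6 and 7 with IFN-γ and 8 and 9 with CpG. Both were called lower with the combination than with either stimulus, but the calls against IFN-γ were lost whenever 1 library was left out, as was that of the chr17 enhancer against CpG.

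Summed over all 393 enhancers that rose, the level was 257.6 ± 4.40 RPM with both stimuli at 9 h and 33.8 ± 0.82 RPM in unstimulated cells, a direction that the choice of the set fixed. The same 393 enhancers summed to 181 ± 41.1 RPM with IFN-γ alone and 131 ± 4.15 RPM with CpG alone at 9 h. With both stimuli for 3 h and 15 h they summed to 246 ± 52.9 and 294 ± 36.5 RPM. The 231 enhancers that fell summed to 28.6 ± 2.63 RPM with both stimuli at 9 h and 234 ± 1.01 RPM unstimulated, with 80.0 ± 14.8 RPM for IFN-γ alone, 103 ± 1.72 RPM for CpG alone, and 80.4 ± 15.2 and 58.0 ± 6.67 RPM with both stimuli for 3 h and 15 h. The single stimuli lay between the 2 groups used to choose the sets, for rises and falls alike. Choosing members at the extremes of those 2 groups favours that order, so it is not read as a result. No test was made of sums over chosen members. The 8430 enhancers under the filter summed to 509 ± 15.6 RPM with both stimuli and 591 ± 24.5 RPM without.

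By chromosome, the share of tested enhancers that were called ran from 16.7% on chromosome 18 to 30.9% on chromosome 17 among the autosomes, beside 22.3% over all. Chromosome 17 had 28 rises and 18 falls among 149 tested enhancers. Chromosome 16 had 19 rises and 4 falls among 117, so that 82.6% of its calls were rises, and the median log2 change of its tested enhancers was 1.02. On chromosome 6, 30 of 198 tested enhancers rose and 8 fell. Chromosome 15 had 9 of each among 93. Enhancers of a chromosome include neighbours that move together, so these shares are descriptions with no test.

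**Figure D2:**
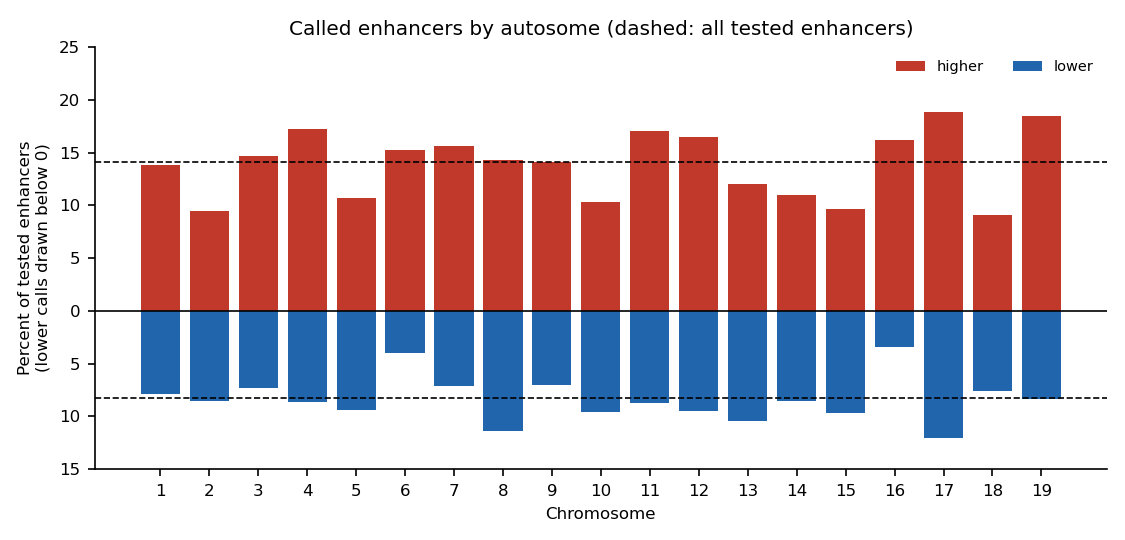
Percent of tested enhancers called higher (bars above 0) and lower (bars below 0, as positive percentages) after IFN-γ plus CpG for 9 h against unstimulated cells, for each autosome; the dashed lines mark 14.1% higher and 8.27% lower over all tested enhancers. Chromosome 16 pairs 16.2% higher with 3.42% lower, and chromosome 17 has high bars in both directions.

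Joining enhancers whose neighbouring midpoints lay 50 kb or less apart gave 3874 loci, of which 2023 held 2 or more enhancers and the largest held 30. With tags summed over all deposited enhancers of a locus, 1898 loci could be tested and 612 changed, or 32.2%, with 340 higher after IFN-γ plus CpG (17.9%) and 272 lower (14.3%) (edgeR, same fit). The median log2 change of the tested loci was 0.16. The split again depended on scaling, with 255 higher and 308 lower under whole-library totals. DESeq2 called 314 loci (194 higher, 120 lower). Of the 612 loci, 242 held no enhancer that was called singly, and 71 held none with enough tags to be tested alone (40 higher, 31 lower).

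There were 104 loci that held 2 or more called enhancers, 265 called enhancers in all. In 62 of these loci the called enhancers all rose, in 32 they all fell, and in 10 both directions occurred. Enhancers in one locus share a neighbourhood and may share transcripts, and they are not independent readings. The 6 loci with most rises and the 4 with most falls are described next. Each kept its call against unstimulated cells in all 4 fits with 1 library left out and in the 5 other alternatives.

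The locus with most rises was chr8:47231252-47394979, 164 kb with 19 enhancers, where 7 of 9 tested enhancers rose. It summed to 69 and 67 tags with both stimuli and 26 and 17 in unstimulated cells, a log2 change of 1.93 ± 0.26 (edgeR adjusted p = 1.13e-11). No enhancer in it had more than 24 tags over the stimulated pair, so the locus changed through many small contributions: chr8:47321346-47321805 had 11 and 13 tags with both stimuli and 2 and 6 without, and chr8:47340427-47340762 had 7 and 5 with both and 0 and 1 without. IFN-γ alone gave 71 and 118 tags over the locus and CpG alone 23 and 33. The combination was higher than CpG alone by a log2 difference of 1.63 ± 0.25 (edgeR adjusted p = 5.57e-09), and its difference from IFN-γ alone, -0.22 ± 0.20, missed the threshold (adjusted p = 0.512).

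The locus chr11:82934995-83052740 had the same order of stimuli. With 6 of its 10 tested enhancers higher, it held 68 and 76 tags with both stimuli and 27 and 21 in unstimulated cells (log2 change 1.85 ± 0.25, edgeR adjusted p = 1.07e-11). IFN-γ alone gave 65 and 103 tags and CpG alone 34 and 25. Again the combination was called higher than CpG alone (log2 difference 1.64 ± 0.24, edgeR adjusted p = 2.06e-09) and not than IFN-γ alone (0.03 ± 0.20, adjusted p = 0.951).

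At chr4:132459018-132543954, 5 of 7 tested enhancers rose. The locus held 78 and 86 tags with both stimuli and 4 and 5 in unstimulated cells, a log2 change of 4.42 ± 0.35 (edgeR adjusted p = 6.75e-34). IFN-γ alone gave 51 and 87 tags over the locus and CpG alone 20 and 18. Its first enhancer, chr4:132459018-132459199, is the second largest single rise above, and there the combination exceeded IFN-γ alone. A second enhancer of the locus, chr4:132521270-132521724, had 16 and 14 tags with both stimuli, 14 and 19 with IFN-γ, 5 and 4 with CpG, and 1 and 0 unstimulated. The 2 enhancers thus differed in how IFN-γ alone compared with the combination, a difference that was not tested.

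At chr19:11306875-11581269 the combination was higher than either single stimulus. The locus spans 274 kb and 5 of its 6 tested enhancers rose. It held 107 and 118 tags with both stimuli, 28 and 54 with IFN-γ, 54 and 58 with CpG, and 11 and 5 in unstimulated cells. The log2 change against unstimulated cells was 4.07 ± 0.29 (edgeR adjusted p = 1.56e-41). The log2 difference was 1.70 ± 0.21 from IFN-γ (adjusted p = 5.34e-13) and 1.36 ± 0.20 from CpG (adjusted p = 1.99e-09). Its enhancers divided by stimulus: chr19:11349540-11350041 carried more tags with CpG alone than with IFN-γ alone, whereas chr19:11517556-11517878 had 2 and 15 tags with both stimuli, 7 and 14 with IFN-γ, none with CpG and none in unstimulated cells.

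The compact locus chr4:62183758-62206227, 22.5 kb long, behaved similarly, with 5 of 6 tested enhancers higher. It held 68 and 75 tags with both stimuli, 22 and 23 with IFN-γ, 36 and 38 with CpG, and 9 and 8 in unstimulated cells. The log2 change against unstimulated cells was 3.33 ± 0.32 (edgeR adjusted p = 6.17e-23), and the combination exceeded IFN-γ by 1.90 ± 0.26 (adjusted p = 1.22e-10) and CpG by 1.30 ± 0.24 (adjusted p = 1.96e-06). At chr17:18047677-18138296, with 4 of 9 tested enhancers higher, the order was that of a CpG response. There both stimuli gave 63 and 55 tags, IFN-γ 9 and 9, CpG 51 and 53, and unstimulated cells 12 and 6 (log2 change 2.97 ± 0.33 against unstimulated cells, edgeR adjusted p = 7.16e-17). The difference of the combination from CpG alone was 0.54 ± 0.24 (adjusted p = 0.0985).

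**Figure D3:**
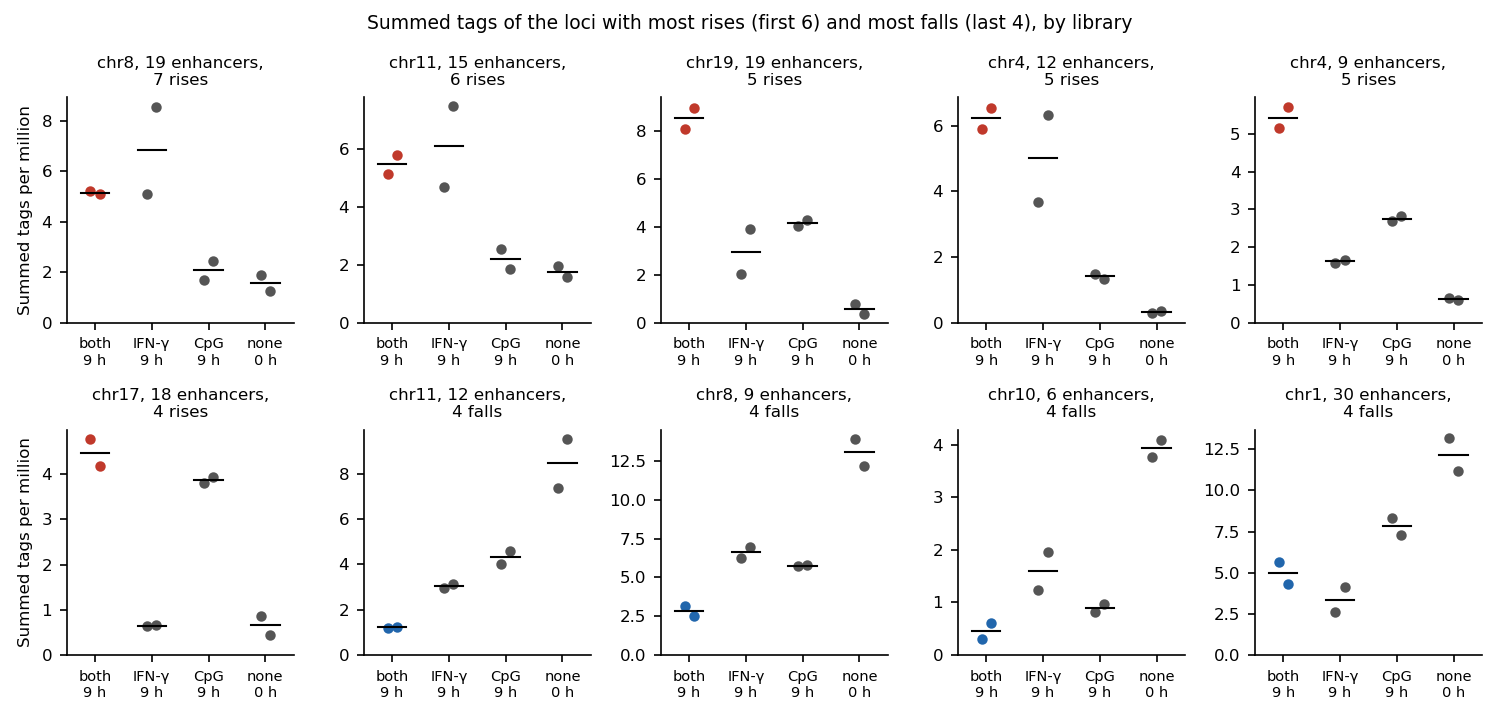
Summed RPM in each library (points) and group mean (line) for the 6 loci with most rises and the 4 with most falls, for IFN-γ plus CpG (both), IFN-γ and CpG at 9 h and unstimulated cells (none, 0 h); vertical axes start at 0. In the chr8 and chr11 loci with 7 and 6 rises the IFN-γ libraries reach the combination, in the chr17 locus the CpG libraries come near it, and in the chr19 locus and the chr4 locus of 9 enhancers both single stimuli stay below it.

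Of the loci with most falls, chr11:114770587-114895102 spans 125 kb and 12 enhancers. It held 16 and 16 tags with both stimuli and 102 and 128 in unstimulated cells, a log2 change of -2.57 ± 0.26 (edgeR adjusted p = 1.98e-20), and 4 of its 6 tested enhancers fell. Among these, chr11:114775634-114775879 had no tags with both stimuli and 11 and 14 without, and chr11:114781897-114782287 none with both and 10 and 13 without. IFN-γ alone gave 41 and 43 tags over the locus and CpG alone 54 and 62, both above the combination. The log2 difference was -1.15 ± 0.31 from IFN-γ (adjusted p = 0.00329) and -1.49 ± 0.29 from CpG (adjusted p = 1.41e-05). The difference from IFN-γ was not called without IFN-γ replicate 1 or without IFN-γ plus CpG replicate 1.

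The locus chr8:84919232-84964446 had 42 and 33 tags with both stimuli and 193 and 164 in unstimulated cells (log2 change -1.98 ± 0.20, edgeR adjusted p = 2.14e-20). Of its 8 tested enhancers 4 fell, and the log2 changes of the other 4, -1.35 to -0.78, were not called. Of the 4 that fell 3 lie close together, and the one with most tags, chr8:84928192-84928495, was described above. IFN-γ alone gave 87 and 96 tags and CpG alone 77 and 78, so that each single stimulus lay between the combination and unstimulated cells. The combination was lower than IFN-γ alone (log2 difference -1.05 ± 0.22, adjusted p = 8.26e-05), while its call against CpG alone was lost whenever 1 library was left out.

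At chr10:120452456-120472344 all 4 tested enhancers fell. The locus held 4 and 8 tags with both stimuli and 52 and 55 in unstimulated cells, a log2 change of -2.86 ± 0.39 (edgeR adjusted p = 9.95e-12). Its enhancer chr10:120471971-120472344 had 1 and 1 tags with both stimuli and 16 and 20 without, an RPM ratio 17.4-fold lower (exact 95% counting interval 4.48 to 149). CpG alone gave 11 and 13 tags over the locus and IFN-γ alone 17 and 27. The groups given any stimulus at 9 h were all below the unstimulated libraries there.

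**Figure D4:**
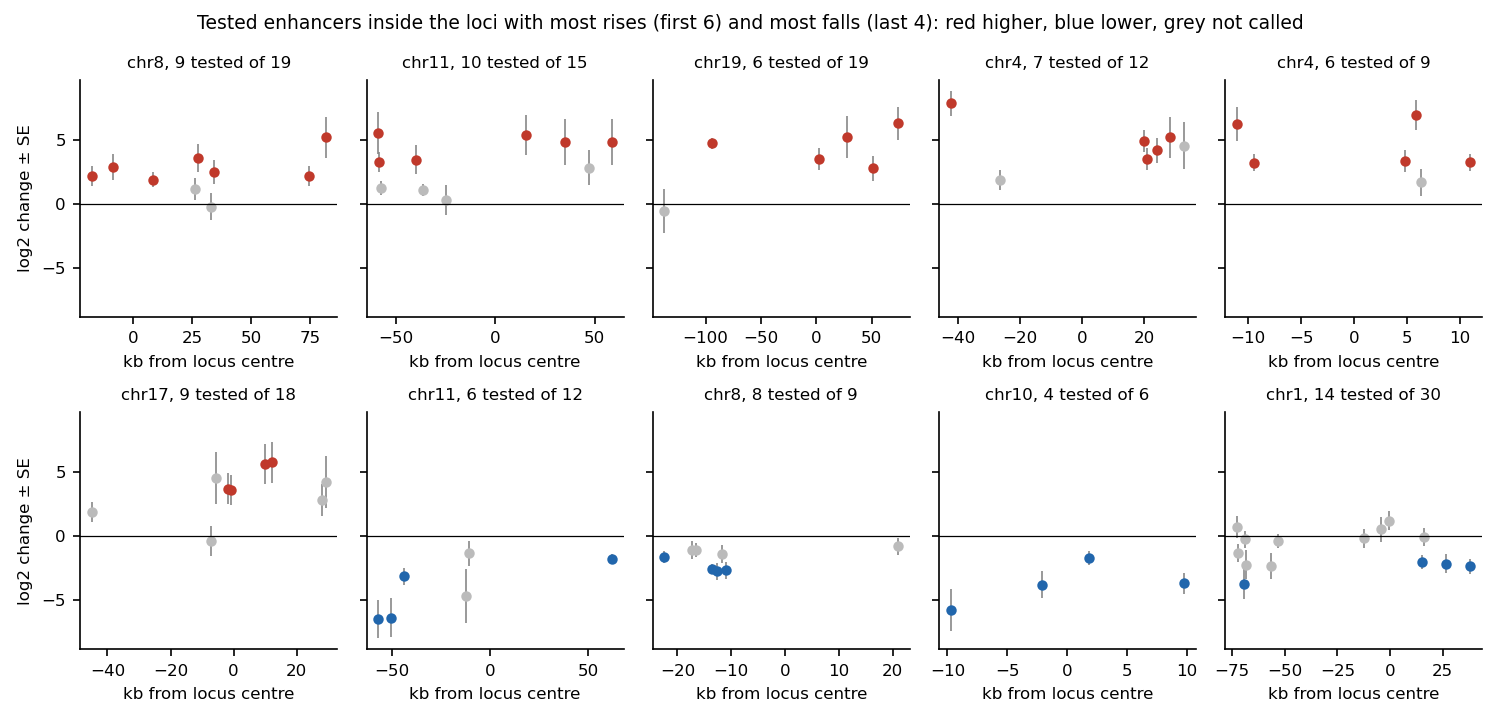
Fitted log2 change of each tested enhancer after IFN-γ plus CpG for 9 h against unstimulated cells, by distance in kb from the middle of its locus. Bars are the standard error derived from the F statistic. The 6 loci with most rises and the 4 with most falls are drawn. Called enhancers within a locus share a direction in all 10 plots, and those with no tag in one group have the widest bars, since their fitted change depends on the prior count.

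In 10 loci called enhancers went both ways, as in the following pair, chosen after the values were seen. At chr12:25147242-25353754 the sum was 36 and 37 tags with both stimuli and 44 and 35 in unstimulated cells (log2 change 0.16 ± 0.27, edgeR adjusted p = 0.680). Inside it, chr12:25238686-25239401 had 3 and 1 tags with both stimuli and 23 and 16 without, a log2 change of -2.87 ± 0.67 (adjusted p = 4.92e-04). Further along, chr12:25258829-25259188 had 15 and 11 tags with both stimuli and 2 and 3 without, a log2 change of 2.66 ± 0.65 (adjusted p = 9.26e-04). At chr7:18999885-19061387, chr7:18999885-19000285 had 22 and 9 tags with both stimuli and 6 and 3 without, and chr7:19053911-19054276 had 1 and 0 with both and 17 and 9 without. These edgeR calls were opposite (higher with adjusted p = 0.00237, lower with adjusted p = 0.00118), while the locus sum of 34 and 19 tags with both stimuli and 52 and 42 without missed the threshold (adjusted p = 0.122).

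Some loci were called although none of their enhancers had enough tags to be tested. At chr9:75315150-75343539, which holds 4 enhancers, no tag was found with both stimuli and 15 and 10 in unstimulated cells, a fold of at least 8.06 down (edgeR adjusted p = 1.77e-05). At chr13:43365809-43425279, which holds 5 enhancers, there was no tag with both stimuli and 11 and 10 without (edgeR adjusted p = 7.99e-04). In the chr9 locus IFN-γ alone left 2 and 2 tags and CpG alone 7 and 10.

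Other loci had no tag at all in unstimulated cells. The locus chr3:121123880-121165357, with 4 enhancers, held 22 and 25 tags with both stimuli, 38 and 59 with IFN-γ, 2 and 5 with CpG and none in unstimulated cells (at least 16.2-fold higher than unstimulated, edgeR adjusted p = 6.41e-14). The locus chr1:173857307-173881001, with 6 enhancers, held 19 and 25 tags with both stimuli, 12 and 17 with IFN-γ, 2 and 5 with CpG and none unstimulated (at least 15.2-fold, edgeR adjusted p = 2.85e-12). Both were called higher than with CpG alone and not different from IFN-γ alone. The locus chr16:84502393-84521457 differed from these in that it held 13 and 17 tags with both stimuli, 0 and 2 with IFN-γ, 0 and 2 with CpG and none unstimulated. It was at least 10.3-fold higher than in unstimulated cells (edgeR adjusted p = 2.32e-07) and was also called higher than with IFN-γ (adjusted p = 8.26e-05) and with CpG (adjusted p = 3.22e-05).

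Set against IFN-γ alone for 9 h, with time held equal, the combination differed at 180 enhancers, or 6.45% of those tested (edgeR), with 117 higher (4.19%) and 63 lower (2.26%), and at 243 loci, or 12.8%, with 144 higher (7.59%) and 99 lower (5.22%). This comparison reads what CpG added. At chr3:58424715-58425015 there were 12 and 19 tags with both stimuli and none with IFN-γ (at least 10.8-fold higher, adjusted p = 1.19e-06 with edgeR), beside 4 and 8 with CpG and 0 and 1 in unstimulated cells. At chr5:136063685-136064190 there were 8 and 9 tags with both stimuli and none with IFN-γ (at least 5.94-fold higher, edgeR adjusted p = 9.23e-04), a level that CpG alone matched with 8 and 9 tags. The locus chr4:144937920-145010319 was nearly level with unstimulated cells, at 43 and 37 tags with both stimuli and 47 and 39 without (edgeR adjusted p = 0.643), while IFN-γ alone left 8 and 9 tags and CpG alone gave 68 and 76. There the combination was 4.93-fold higher than IFN-γ alone (edgeR adjusted p = 1.60e-09). Of the 393 enhancers that rose against unstimulated cells, 84 were higher and 3 lower than with IFN-γ alone. With whole-library totals, which shift the median log2 difference of tested enhancers by -0.15, the calls were 69 higher and 59 lower for enhancers and 88 higher and 100 lower for loci, and limma called 122 enhancers higher and 156 lower.

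Among enhancers lower than with IFN-γ alone, chr17:35221557-35221747 had no tags with the combination, 12 and 14 with IFN-γ, 5 and 6 with CpG and 5 and 15 in unstimulated cells. It was at least 8.27-fold lower than with IFN-γ (edgeR adjusted p = 1.70e-04). At chr5:33979875-33980174 there were no tags with both stimuli and 10 and 9 with IFN-γ (at least 6.04-fold lower, edgeR adjusted p = 0.00787), beside 1 and 2 in unstimulated cells. This call was lost without IFN-γ replicate 1 (adjusted p = 0.0756) and without either combination library.

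Set against CpG alone for 9 h, the combination differed at 183 enhancers, or 6.55% of those tested (edgeR), with 130 higher (4.66%) and 53 lower (1.90%), and at 321 loci, or 16.9%, with 201 higher (10.6%) and 120 lower (6.32%). This comparison reads what IFN-γ added. At chr11:70366036-70366623 there were 12 and 17 tags with both stimuli and none with CpG (at least 9.86-fold higher, edgeR adjusted p = 7.76e-07), beside 8 and 8 with IFN-γ and 3 and 3 in unstimulated cells. At chr9:47556282-47556703 there were 9 and 15 tags with both stimuli and none with CpG (at least 8.16-fold, edgeR adjusted p = 7.23e-06), beside 17 and 16 with IFN-γ and 3 and 0 unstimulated. The locus chr4:130515037-130527783 had 15 and 13 tags with both stimuli, 32 and 30 with IFN-γ, none with CpG and 4 and 1 in unstimulated cells (log2 difference from CpG called at adjusted p = 4.12e-08). Of the 393 rises against unstimulated cells, 114 were also higher than with CpG alone and none lower. Of the 231 falls, 21 were lower than with IFN-γ alone and 26 lower than with CpG alone. With whole-library totals, a shift of -0.21 in the median, the enhancer calls against CpG were 78 higher and 64 lower and the locus calls 110 higher and 156 lower, and limma called 125 enhancers higher and 159 lower. Since all these comparisons share the combination libraries, these counts are no independent support for each other. The rises and falls were also chosen by those libraries, which favours higher calls among the rises and lower calls among the falls.

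At 21 of the 2792 tested enhancers the combination was higher than with either single stimulus. At 10 it was lower than with either, and these sets were chosen after the values were seen. Of the 21, chr16:17285443-17285962, chr3:79078776-79079153 and chr4:132459018-132459199 kept both calls in every fit with 1 library left out and in the other alternatives. The enhancer chr3:79078776-79079153 had 26 and 20 tags with both stimuli, 3 and 0 with IFN-γ, 0 and 4 with CpG, and 3 and 3 in unstimulated cells. The single stimuli thus gave no more than 4 tags in a library. Its neighbour chr3:79081350-79081587 had 9 and 6 tags with both stimuli, 0 and 1 with IFN-γ, 1 and 1 with CpG and none unstimulated, but both its calls were lost whenever 1 library was left out. At chr5:121537641-121537963 there were 57 and 47 tags with both stimuli, 25 and 22 with IFN-γ, 6 and 7 with CpG and 1 and 3 in unstimulated cells. At chr13:33186931-33187283 there were 22 and 22 tags with both stimuli, 4 and 8 with IFN-γ, 2 and 2 with CpG and 0 and 1 unstimulated. The calls of these 2 against IFN-γ were lost without IFN-γ replicate 2 for the chr5 enhancer and without IFN-γ replicate 1 for the chr13 enhancer. In all of these the combination libraries lay above every library of the single stimuli.

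Of the 10 enhancers lower than with either single stimulus, 0 kept both edgeR calls in every fit with 1 library left out. The enhancer chr8:120152256-120152713 had 3 and 2 tags with both stimuli, 16 and 17 with IFN-γ, 16 and 22 with CpG, and 27 and 26 in unstimulated cells. At chr19:37424075-37424522 there were 1 and 1 tags with both stimuli, 8 and 13 with IFN-γ, 10 and 8 with CpG, and 11 and 1 in unstimulated cells. Of the 1898 tested loci, 35 were higher with the combination than with either single stimulus and 10 were lower. The majority of higher calls depends on the scaling. With whole-library totals 88 loci were higher and 100 lower against IFN-γ, and 110 higher and 156 lower against CpG.

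Being above both single stimuli is not the same as exceeding the sum of their log2 effects. Additive log2 effects multiply as folds, so levels can exceed the sum of the single levels without a departure. The enhancer chr16:17285443-17285962, for example, had a mean of 2.88 RPM with both stimuli, 0.435 with IFN-γ, 0.0371 with CpG and none unstimulated. Its departure was not called. Departure from additivity asked whether the log2 effect of CpG given with IFN-γ differed from its effect given alone. No enhancer passed the threshold with edgeR (0.00% of those tested, with 272 at an unadjusted p under 0.05), none with DESeq2 (115 at an unadjusted p under 0.05), and 2 with limma on RPM. The median standard error, derived as above, was 1.49 on the log2 scale for this contrast and 1.02 for the comparison with unstimulated cells. For single enhancers it is unreliable in this contrast, at 0.161 for chr9:88838166-88838400 and 17994 for chr16:84502393-84502830. At a median of 3 tags per tested enhancer and library, the absence of calls does not show that effects were additive.

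By locus, 34 departed from additivity, or 1.79% of those tested (edgeR). Of these, 19 were above (1.00%) and 15 below (0.790%) the sum of the single log2 effects, called the sum below. With whole-library totals 6 were called, none above and 6 below, so the direction above the sum rested on the scaling, and DESeq2 called 2, both above. Joining loci within 100 kb gave 46 calls, 21 above and 25 below. Leaving out 1 of the 8 libraries gave 7 to 25 calls. Only 3 of the 34 were called in every such fit. These are chr1:190913356-191059965, chr17:26716256-26825846 and chr11:70324491-70419752, and none of the 3 was called with whole-library totals.

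The first of these, a 147 kb locus with the largest number of listed enhancers, 30, was also among the loci with most falls. It had 75 and 57 tags with both stimuli, 36 and 57 with IFN-γ, 112 and 98 with CpG, and 182 and 150 in unstimulated cells. All 3 stimulated groups were thus below unstimulated cells. The combination fell by less than the sum of the single log2 falls, with a departure of 1.49 ± 0.28 (edgeR adjusted p = 1.26e-04). At chr17:26716256-26825846 the order was similar, with 55 and 50 tags for both stimuli, 30 and 54 for IFN-γ, 77 and 71 for CpG and 146 and 124 in unstimulated cells (departure 1.52 ± 0.30, edgeR adjusted p = 4.19e-04). At chr11:70324491-70419752 there were 48 and 44 tags for both stimuli and 35 and 38 for IFN-γ, a difference that was not called. CpG alone lay below unstimulated cells, with 7 and 10 tags against 26 and 23. The departure of 2.17 ± 0.49 (edgeR adjusted p = 0.00372) was lost with DESeq2 as well as with whole-library totals.

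Loci below the sum included chr7:140533678-140628484, where the combination was at 10 and 15 tags, IFN-γ at 14 and 24, CpG at 20 and 21, and unstimulated cells at 3 and 3. All 3 stimulated groups lay above unstimulated cells there. The departure of -2.99 ± 0.72 (edgeR adjusted p = 0.0130) was also called with whole-library totals, and not in 3 of the 8 fits with 1 library left out. At chr17:35221557-35267658 the combination had 1 and 0 tags, IFN-γ 15 and 31, CpG 10 and 10, and unstimulated cells 15 and 25, with a departure of -3.91 ± 1.06 (edgeR adjusted p = 0.0242). That locus was called lower with the combination than with either stimulus, and its departure was lost in 6 of the 8 fits with 1 library left out.

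**Figure D5:**
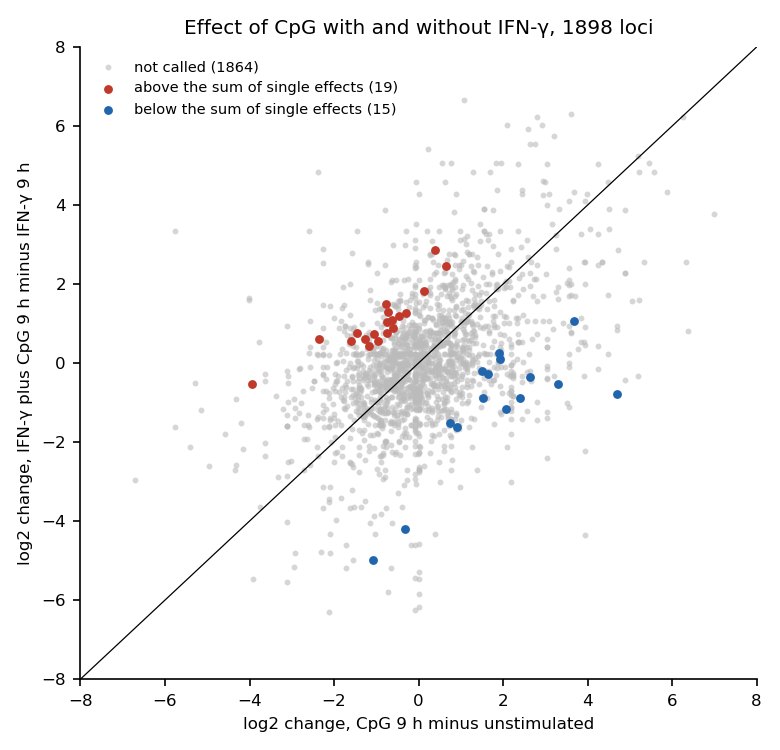
Log2 change from adding CpG to IFN-γ at 9 h (vertical axis) against the log2 change from CpG alone relative to unstimulated cells (horizontal axis) for the 1898 tested loci; the line marks equal effects, and coloured points are the 19 loci above and the 15 below it that passed the test for departure from additivity. The axes share no library, and the coloured points above the line were not called when libraries were scaled to their whole totals.

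Over time, the combination at 9 h differed from that at 3 h at 98 enhancers, or 3.51% of those tested (edgeR), with 49 higher (1.76%) and 49 lower (1.76%), and at 231 loci, or 12.2%, with 112 higher (5.90%) and 119 lower (6.27%). The 3 h libraries had 1608.9 and 2201.8 RPM in enhancers, more than the 9 h libraries, and the split of calls followed the scaling, with 20 enhancers higher and 93 lower, and 42 loci higher and 212 lower, under whole-library totals (a shift of -0.31 in the median). The enhancer chr1:176651455-176651913 had 15 and 10 tags with both stimuli at 9 h and 83 and 111 at 3 h, with 1 and 1 in unstimulated cells (log2 difference of 9 h from 3 h -2.56 ± 0.34, edgeR adjusted p = 2.93e-11). In the other direction chr19:11349540-11350041 had 66 and 64 tags at 9 h and 8 and 18 at 3 h (2.70 ± 0.34, edgeR adjusted p = 2.75e-12). Of the 393 rises against unstimulated cells, 26 were higher at 9 h than at 3 h and 2 were lower. The 393 were chosen by the same 9 h libraries, which favours higher calls, and all tested enhancers split into 49 and 49.

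Against the combination at 15 h, 1 enhancer differed, or 0.0358% of those tested, and 1 locus, or 0.0527% (edgeR). The enhancer was chr7:75319181-75319526, with 21 and 17 tags at 9 h and 98 and 54 at 15 h, that is, -1.62 ± 0.31 on the log2 scale (edgeR adjusted p = 6.70e-04) and an RPM ratio 4.00-fold lower (exact 95% counting interval 2.78 to 5.86). It had 18 and 9 tags in unstimulated cells and 40 and 39 with CpG alone for 9 h. The call rested on single libraries, since it was lost without combination 15 h replicate 1 (adjusted p = 0.722) and without combination 9 h replicate 2 (adjusted p = 0.210), and DESeq2 did not make it (adjusted p = 0.450). So few calls do not show that the profiles at 9 and 15 h are alike.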

How the data were processed

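The 20 libraries of 10 groups were made by nAnT-iCAGE, which reads capped 5′ ends of RNA, and groups and replicate numbers were read from the labels. For 11222 enhancers the authors deposited raw counts of tags and a second table named TPM. Its deposited values are RPM, relative to all tags of a library, because count divided by value gave 1 total per library. Per the submitters' processing notes, FastQC 0.11.5, Trimmomatic 0.38, BWA 0.7.10, HISAT2 2.1.0 and the build mm39 were used; the enhancer caller is not given in the sources used here. Doses in the protocol belong to a stimulation of another length and are not used.

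Counts were fitted with edgeR 4.0.16 (R 4.3.3; robust quasi-likelihood F-test, two-sided, TMM, 1 coefficient per group over all 20 libraries, 10 residual degrees of freedom) after filtering (filterByExpr, min.count 5, min.total.count 15), and p-values were adjusted over all 2792 tested enhancers or 1898 loci. The p-values treat the 2 libraries per group as biological replicates. The common biological coefficient of variation was 17.8%. Replicates correlated at r = 0.70 with both stimuli at 9 h and 0.80 in unstimulated cells on log2 RPM and differed by more than sampling noise. Folds and intervals are RPM ratios; against a group with no tag the fold is a lower bound from 3 tags over the group, and intervals (exact, 95%) and floors cover counting error only. The fit was run on data simulated from its own model and estimates of spread, where 3.61% of calls were false. Such data do not test that model or the scaling.

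The members and lists were chosen with earlier results of these data known. Named enhancers were the 12 largest rises and 10 largest falls against unstimulated cells, and up to 3 each way in other comparisons, among called enhancers with groups that did not overlap and a mean of at least 5 tags, plus the 3 with highest RPM each way; others were chosen after their values were seen. The named loci were the 6 with most rises and the 4 with most falls. Alternatives were RLE factors, whole-library totals, DESeq2 1.42.0, limma 3.58.1 on log2(RPM + 0.5), or 0.1 or 2, other filters, the compared groups alone, a replicate block, loci joined within 10 or 100 kb and leaving out each library. The annotation at hand is of an older build than mm39, so nearby genes, gene lists, markers and sequence motifs were not analysed here.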

Additional observations from a re-analysis of the deposited data

Results flagged for a closer look

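The combination at 9 h differed from the same combination at other times, which was looked at because groups under the same stimuli differ by a direct test. Against 3 h, 98 enhancers and 231 loci were called, and against 15 h 1 enhancer and 1 locus (edgeR). The effect of CpG with IFN-γ differed from its effect alone at 34 loci.

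The 3 largest rises over 3 h by fitted change (edgeR) were at enhancers with no tag at 3 h: chr3:15575089-15575313 with 2 and 11 tags at 9 h (fitted log2 difference 5.93), chr17:35427191-35427651 with 6 and 7 (5.91) and chr17:18102988-18103257 with 5 and 6 (5.67). In the other direction, no tag was found at 9 h at chr3:121123880-121124248, which had 12 and 14 tags at 3 h (fitted log2 difference -6.52), at chr9:46028190-46028495, which had 12 and 9 (-6.23), and at chr13:91132176-91132532, which had 7 and 11 (-5.98). In 5 of these 6 the call was lost when either 3 h library was left out, and DESeq2 gave none of the 6 an adjusted p. Fitted differences against a group with no tag depend on the prior count. Enhancer chr7:75319181-75319526 was lower at 9 h than at 15 h by a log2 difference of -1.62, a call that rested on single libraries as given above.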

How the results depend on the processing

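No called difference of a named enhancer or locus, and no total, changed sign under the alternatives run, but the majority of calls did turn. Differences that were not called are not covered by this, and those near 0 can change sign with the scaling. Whole-library totals and limma on RPM, which uses the same totals, gave more falls than rises against unstimulated cells (limma 305 higher and 398 lower with 0.5 RPM added), and limma did so against IFN-γ (122 higher, 156 lower) and against CpG (125 higher, 159 lower). Against unstimulated cells, DESeq2 called 192 enhancers and 314 loci, no filter gave 394 enhancers and a stricter filter, which leaves fewer enhancers to test, 314. Against IFN-γ at 9 h, DESeq2 called 24 enhancers and 100 loci, limma 278 enhancers, and no filter gave 68. Against CpG at 9 h, DESeq2 called 56 enhancers and 109 loci, limma 284 enhancers, and no filter gave 67. Against both stimuli at 3 h, DESeq2 called 20 enhancers and 48 loci, limma 317 enhancers (61 higher, 256 lower), the compared groups alone 181, and no filter 40. Against both at 15 h, DESeq2 called 0 enhancers and 0 loci, limma 22 enhancers, and whole-library totals 3 enhancers and 4 loci. For departure from additivity, limma called 2 enhancers, while by locus DESeq2 called 2, no filter gave 21, whole-library totals 6 (none above, 6 below) and joining within 10 kb 11. Joining within 100 kb gave 46 loci (21 above, 25 below) and RLE factors 36 (17 above, 19 below), so the majority above the sum was lost there too. The total enhancer difference was -112 RPM over tested enhancers alone. Apart from fewer tests under the stricter filter, the cause of these changes was not tested.

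Leaving out 1 library at a time gave 294 to 372 enhancers and 427 to 438 loci against unstimulated cells, 42 to 59 and 136 to 162 against IFN-γ, 49 to 71 and 158 to 191 against CpG, 30 to 41 and 94 to 112 against both at 3 h, 0 to 2 and 0 to 1 against both at 15 h, and 0 to 1 and 7 to 25 for additivity. The total difference then ran from -234 to -152 RPM. A group left with 1 library was assumed to vary like the other groups. Enhancer counts against unstimulated cells, either stimulus and 3 h fell by over 1.5 times whichever library was left out.

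Same-numbered libraries did not deviate together (45 group pairs, r = -0.051 to 0.038). With a median of 3 tags per tested enhancer and library, counting noise could hide a shared origin, so pairing is not excluded. With a replicate block, 608 enhancers and 604 loci were called against unstimulated cells, and 0 enhancers and 32 loci for additivity. Of 28 named enhancers against unstimulated cells, 27 kept their call in every alternative that gave an adjusted p. DESeq2 gave none for 1 of these and for 11 of all named enhancers. The locus alternatives for comparisons other than that with unstimulated cells were chosen after seeing the data. Windows around genes were not run, for want of an mm39 annotation. Depth limits single enhancers. On simulated data fewer falls than rises were recovered when changes started from the mean of an enhancer over all libraries.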
